A study of Mus musculus with 33 samples.

Results

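Anti-Müllerian hormone (AMH) and the receptors it binds were followed through 33 mouse ovary RNA libraries in 9 groups. The genes were the ligand gene Amh, the type II receptor gene Amhr2 and the type I receptor genes Bmpr1a and Bmpr1b. They are the rows of the deposited count table whose Ensembl identifier maps to these 4 mouse symbols, a set that was chosen with earlier results of these data known. All 4 were found among the 54347 genes of the table, and all 4 passed the filter on low counts in every experiment.

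AMH is a member of the transforming growth factor beta family that granulosa cells of small growing follicles secrete, and it is known for restraining the recruitment of primordial follicles and the response of follicles to follicle-stimulating hormone (FSH). It binds AMHR2, a type II receptor that has no other known ligand, and AMHR2 then pairs with a type I receptor, BMPR1A, BMPR1B or ACVR1, all of which also serve bone morphogenetic proteins. The type I receptor phosphorylates SMAD1, SMAD5 and SMAD9, which enter the nucleus with SMAD4 and switch on genes such as those of the Id family. In the fetus the same ligand and type II receptor remove the Müllerian ducts of males.

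Experiment 1 held 3 libraries each of ovaries labelled WT, Fshb(+/-) and Fshb(-/-). Fshb encodes the hormone-specific subunit of FSH, which is made in the pituitary, so an ovary of an Fshb(-/-) mouse carries the deletion in every cell but lacks a hormone that comes from elsewhere. Experiment 2 comprised 4 libraries of Fshb(-/-) ovaries and 4 whose genotype reads Fshb(-/-) HFSHB. These are termed the rescue, since their label adds an FSHB transgene, and the deletion is thus shared by both groups. Experiment 3 held 4 libraries of each of the estrous stages DE, PE and E, labelled WT, and 4 whose stage label is KO (anestrus) while their genotype label is WT. Stage was not recorded for experiments 1 and 2. The stage names are not spelled out in the labels; in usual usage they stand for diestrus, proestrus and estrus. The sources used here do not give the strain, the age, the promoter of the transgene or whether each library came from a separate mouse. Without the last, p-values measure only the spread between these libraries, which may be technical.

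Total counts ran from 13.6 to 16.9 M per library in experiment 1, from 19.6 to 23.7 M in experiment 2 and from 10.1 to 15.9 M in experiment 3. Single libraries held 574 to 16276 counts of Amh, 483 to 4940 of Amhr2, 1549 to 5431 of Bmpr1a and 1123 to 5477 of Bmpr1b. Defining ovarian transcripts were present: none of 18 granulosa cell markers and none of 14 oocyte markers was at 0 in any group. The targeted gene went against its labels. Fshb stood at 4.12 to 5.79 counts per M (CPM) in the libraries labelled Fshb(-/-) of experiment 1 at 2.63 to 6.9 CPM in those labelled Fshb(+/-), which overlapped them, and at 0 to 0.0618 CPM in those labelled WT. It stood at 5.7 to 8.6 CPM in the libraries labelled Fshb(-/-) of experiment 2, 10.3 to 21.8 CPM in the rescue, 7.02 to 8.38 CPM in KO (anestrus), and 0 to 14.9 CPM over the 3 stages. Which part of Fshb was deleted is not given in the sources used here, so every direction that follows rests on the labels. Some libraries also held transcripts of oviduct epithelium. The summed level of 10 such markers was 3450 to 7490 CPM in DE replicates 1, 2 and 4, 25.2 CPM in DE replicate 3, 3280 to 5640 CPM in all PE libraries, 4780 CPM in E replicate 3 and 16.5 to 27 CPM in the other E libraries. It was 36.4 to 75.6 CPM in KO (anestrus), 1370 CPM in Fshb(+/-) replicate 3, and 22.3 to 553 CPM in the remaining libraries of experiments 1 and 2.

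On GRCm38, Amh (ENSMUSG00000035262.5) lies on chromosome 10 from 80805243 to 80807648 on the plus strand, with 1 annotated transcript and 1.67 kb of exon. Amhr2 (ENSMUSG00000023047.11) lies on chromosome 15 from 102445367 to 102454633 on the plus strand. Bmpr1a (ENSMUSG00000021796.15) lies on chromosome 14 from 34410734 to 34503341 and Bmpr1b (ENSMUSG00000052430.15) on chromosome 3 from 141837136 to 142169425, both on the minus strand. RefSeq promoter windows, which run from 250 bases before a gene's start to 50 after it, were matched for 3 of the 4 genes. The window of Amhr2 is shown because Amhr2 moved with Amh in the results that follow and because it holds, at 2 places, the motif CAAGGTC, the half-site bound by the steroidogenic factor NR5A1. It is GRCm38.p6 chr15:102445117-102445416, plus strand, 5′ to 3′, with each match in capitals.
Amhr2: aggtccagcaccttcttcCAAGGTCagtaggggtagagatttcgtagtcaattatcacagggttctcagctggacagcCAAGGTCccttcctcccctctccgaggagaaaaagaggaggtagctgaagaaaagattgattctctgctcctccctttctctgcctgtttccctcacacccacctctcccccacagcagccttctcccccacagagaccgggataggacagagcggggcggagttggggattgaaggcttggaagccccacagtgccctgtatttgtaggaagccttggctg
The matches begin at positions 19 and 79 of the window, 232 and 172 bases before the annotated start, both on the plus strand. Searched as CAAGGTC or its reverse complement GACCTTG, the motif was in 1301 of 32851 RefSeq promoter windows of mouse (3.96%). It was not in the window of Bmpr1a or in the 3 windows of Bmpr1b. A match is a stretch of letters and says nothing of binding in these ovaries.

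Amh, the ligand gene, was the most changed of the 4. In libraries labelled Fshb(-/-) it was 3.68-fold higher than in WT libraries, 2.94-fold lower under the FSHB transgene than in its Fshb(-/-) group, and 3.31-fold to 6.13-fold lower in E, DE and PE than in KO (anestrus). In experiment 1 its level was 206, 248 and 337 CPM in the libraries labelled WT, 231, 231 and 138 CPM in Fshb(+/-), and 926, 985 and 1000 CPM in Fshb(-/-). The Fshb(-/-) values lay above all others, as those of 18.3% of genes did against WT, and the WT and Fshb(+/-) values overlapped. The means were 971 ± 39.3 CPM against 264 ± 66.8 CPM (SD, n = 3), a log2 fold change of 1.88 ± 0.23 (SE), or 3.68-fold (edgeR quasi-likelihood test, Benjamini-Hochberg adjusted p = 0.0031). Of all genes tested in that comparison, 4.53% passed as higher at the threshold of 0.05. Against Fshb(+/-) the log2 fold change was 2.28 ± 0.24 (edgeR adjusted p = 7.1e-04), where 9.1% of genes passed as higher and the values of 19.1% lay above without overlap. Both comparisons use the same 3 Fshb(-/-) libraries. Amh of Fshb(+/-) and WT differed by -0.40 ± 0.23 on the log2 scale (edgeR adjusted p = 0.59, 95% interval -0.91 to 0.11), which did not pass the test; 15 genes, 0.0871% of those tested, did.

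In experiment 2 Amh stood at 485, 554, 399 and 525 CPM in the libraries labelled Fshb(-/-) and at 237, 180, 131 and 119 CPM in the rescue. The groups did not overlap, the rescue being lower, as for 17.4% of genes. The rescue mean of 167 ± 53.9 CPM was 2.94-fold below that of 491 ± 67.4 CPM (SD, n = 4), a log2 fold change of -1.56 ± 0.23 (edgeR adjusted p = 0.002); 16.2% of genes passed as lower. The rescue fall was set against the WT level of experiment 1 as a difference of differences, the rescue minus Fshb(-/-) of experiment 2 less the WT minus Fshb(-/-) of experiment 1. That was 0.32 ± 0.33 on the log2 scale for Amh, with a 95% interval of -0.40 to 1.03, and did not pass the test (edgeR adjusted p = 0.92; 0.153% of genes passed). The interval includes 0, and it includes a fall under the transgene that is smaller or larger than the gap between genotypes.

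In experiment 3 Amh stood at 385, 309, 453 and 438 CPM in KO (anestrus). It was 47.1, 139, 143 and 54.2 CPM in DE, 64.6, 67.3, 65.5 and 60.7 CPM in PE, and 162, 94.6, 124 and 96.8 CPM in E. Every stage library lay below every KO (anestrus) library, as for 14.5% of genes in DE, 20.7% in PE and 17.3% in E, PE was tight, and DE fell into a high and a low pair, replicates 2 and 3 against 1 and 4. The log2 fold change against KO (anestrus) was -2.04 ± 0.32 in DE (edgeR adjusted p = 8.9e-04), -2.62 ± 0.33 in PE (edgeR adjusted p = 1.5e-04) and -1.73 ± 0.32 in E (edgeR adjusted p = 0.0023). PE thus had the lowest mean, 6.13-fold below KO (anestrus). All PE libraries were rich in oviduct transcripts (3280 to 5640 CPM of summed markers) and no KO (anestrus) library was (36.4 to 75.6 CPM). Stage and oviduct content cannot be told apart between PE and KO (anestrus). Of all genes, 11.6% passed as lower in DE, 16.3% in PE and 8.98% in E. These 3 comparisons share the 4 KO (anestrus) libraries. In E libraries that were low in oviduct transcripts, replicates 1, 2 and 4, the log2 fold change was -1.71 (edgeR adjusted p = 0.002), a selection made after the oviduct markers were seen.

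Between stages no member passed the test, and no gene of the 16944 tested did by edgeR in any of the 3 comparisons; 407 genes had an unadjusted p under 0.05 between PE and DE, 3170 between E and PE and 1796 between E and DE. For E against PE, DESeq2 called 337 genes and limma voom with sample quality weights 2489; for E against DE they called 10 and 0, and for PE against DE 0 and 0. With DE replicate 3 and E replicate 3 both left out, edgeR called 2656 genes between E and PE and 2750 between E and DE. None of these fits called a member. Over the 8 alternatives other than single libraries left out, the adjusted p of Amh in E against PE was 0.05 to 0.35 (edgeR, DESeq2 or voom). At its lowest it lay at the threshold without passing. The largest stage difference of a member was that of Amh, 120 ± 31.6 CPM in E against 64.5 ± 2.77 CPM in PE (SD, n = 4), 0.89 ± 0.31 on the log2 scale with an interval of 0.22 to 1.56. Its adjusted p was 0.21 by edgeR (unadjusted 0.013) although the libraries of E and PE did not overlap, as was so for 4.46% of genes in that direction. All PE libraries were rich in oviduct transcripts (3280 to 5640 CPM of summed markers) and E replicates 1, 2 and 4 poor in them (16.5 to 27 CPM). Stage and oviduct content can thus barely be told apart between E and PE. E replicate 3, rich in oviduct transcripts at 4780 CPM, stood at 124 CPM of Amh.

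**Figure D1:**
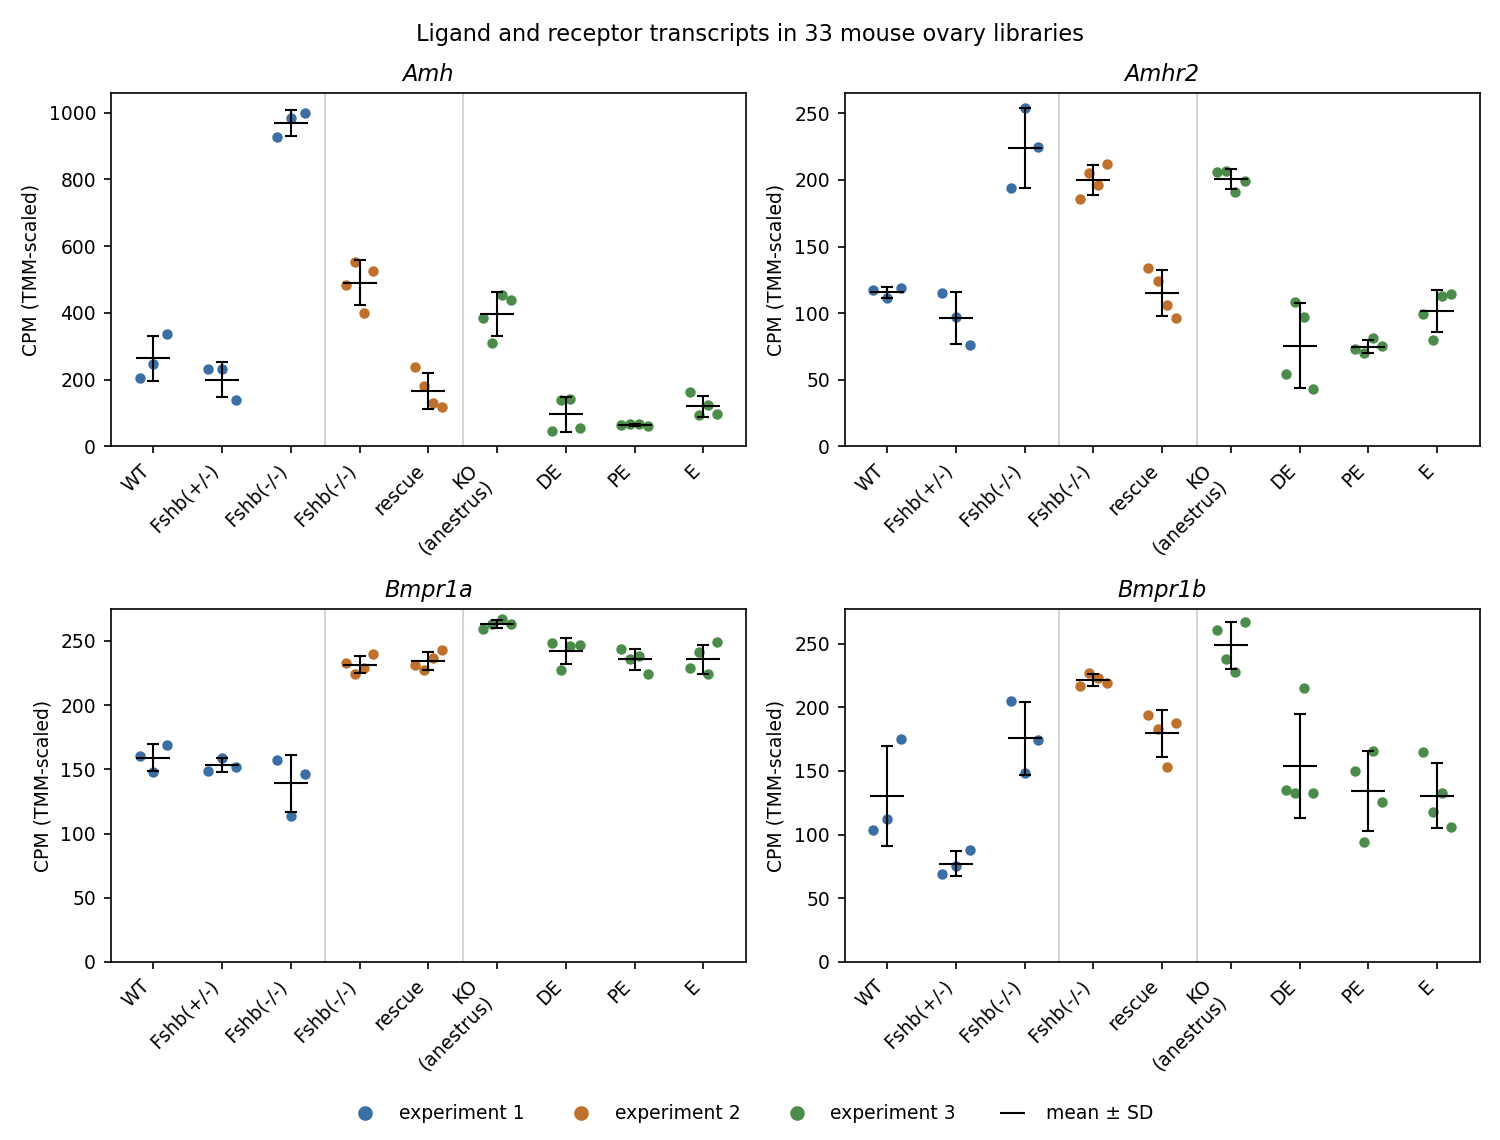
TMM-scaled counts per M of Amh, Amhr2, Bmpr1a and Bmpr1b in each of 33 libraries (points, coloured by experiment), with the mean and SD of each of the 9 groups in black. Amh and Amhr2 are high in the Fshb(-/-) and KO (anestrus) groups of all 3 experiments, while Bmpr1a lies at 114 to 169 CPM in experiment 1 and at 224 to 267 CPM in experiments 2 and 3, which overlap.

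Amhr2, the gene of the receptor that is specific to AMH, moved in the same direction as Amh in the 6 comparisons of Fshb(-/-) or KO (anestrus) with another group, by fewer log2 units in each. In experiment 1 it was 117, 111 and 119 CPM in WT, 115, 97.2 and 75.9 CPM in Fshb(+/-) and 194, 254 and 225 CPM in Fshb(-/-). The lowest Fshb(-/-) library lay above all 6 libraries of the other groups, as for 18.3% of genes against WT and 19.1% against Fshb(+/-). The log2 fold change was 0.96 ± 0.16, or 1.94-fold, against WT (224 ± 30.3 against 115 ± 4.28 CPM, SD, n = 3; edgeR adjusted p = 0.0094) and 1.22 ± 0.16 against Fshb(+/-) (edgeR adjusted p = 0.0017). Fshb(+/-) against WT gave -0.27 ± 0.16 (edgeR adjusted p = 0.61).

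In experiment 2 Amhr2 was 186, 205, 196 and 212 CPM in Fshb(-/-) and 134, 124, 106 and 96.5 CPM in the rescue, without overlap. Of all genes, 17.4% lay lower in the rescue without overlap. The rescue mean of 115 ± 17.1 CPM was 1.73-fold below that of 200 ± 11.3 CPM (SD, n = 4; log2 fold change -0.79 ± 0.10, edgeR adjusted p = 5.4e-04). The difference of differences was 0.16 ± 0.19 (edgeR adjusted p = 0.93, interval -0.25 to 0.57). In experiment 3 KO (anestrus) stood at 206, 207, 191 and 199 CPM. Amhr2 was 54.6, 108, 97.2 and 42.8 CPM in DE, 73, 70, 81.4 and 75.2 CPM in PE, and 99.1, 79.9, 113 and 114 CPM in E. All 12 stage libraries lay below the 4 of KO (anestrus), as for 14.5% of genes in DE, 20.7% in PE and 17.3% in E. The 2 DE libraries that were high for Amh were also high for Amhr2. The log2 fold changes were -1.41 ± 0.23 in DE (edgeR adjusted p = 0.001), -1.42 ± 0.23 in PE (edgeR adjusted p = 7.9e-04) and -0.99 ± 0.22 in E (edgeR adjusted p = 0.0081). In the E libraries low in oviduct transcripts it was -1.0 (edgeR adjusted p = 3.5e-04).

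In ovaries as whole tissue, fewer cells of a type and less RNA per cell cannot be told apart. Summed markers of granulosa cells, which make AMH and carry AMHR2, were 6910 to 7940 CPM in Fshb(-/-) of experiment 1 against 8520 to 9830 CPM in WT. They were 5780 to 6110 CPM in Fshb(-/-) of experiment 2 against 7350 to 8630 CPM in the rescue. KO (anestrus) held 5350 to 6280 CPM, DE 4020 to 9120, PE 3730 to 8810 and E 5270 to 6260. Of the 18 granulosa genes, 4 were higher and 4 lower in Fshb(-/-) against WT, and 7 were higher and 7 lower in the rescue. Of all genes, 7.87% and 31.9% passed there in either direction. The sums rest on a few abundant genes: in Fshb(-/-) against WT, Inhba and Inhbb, which encode activin and inhibin subunits, fell from 782 to 36.4 CPM (edgeR adjusted p = 7.5e-04) and from 568 to 60.8 CPM (edgeR adjusted p = 0.0054), and Gja1, a gap junction gene picked after its values were seen, was at 2160 against 2600 CPM (edgeR adjusted p = 0.44). The median log2 fold change of the list was -0.03 there, beside -0.01 over all genes, and -0.10 in the rescue, beside 0.00. It was 0.39 in Fshb(-/-) against Fshb(+/-), beside -0.02, with 6 genes higher and 3 lower. Against KO (anestrus) it was -0.44 in DE (3 higher, 5 lower), -0.49 in PE (3 and 5) and -0.35 in E (3 and 3), beside 0.01 in each. Of all genes, 17%, 25.1%, 33.8% and 18% passed in either direction in those comparisons, from Fshb(+/-) to E.

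Oocyte markers moved in the direction of Amh. Their 14 genes summed to 736 to 927 CPM in Fshb(-/-) against 402 to 537 CPM in WT (10 higher, 0 lower). The rescue had 375 to 543 CPM against 864 to 1270 CPM (14 of 14 lower). KO (anestrus) had 1070 to 1250 CPM against 193 to 662 in DE, 248 to 440 in PE and 441 to 654 in E, where 14, 14 and 6 genes were lower. The 8 luteal cell markers ran the other way, with 3540 to 4310 CPM in Fshb(-/-) and 6530 to 17200 CPM in WT (2 lower), 9700 to 26300 CPM in the rescue and 3880 to 4830 CPM in its Fshb(-/-) group (7 higher in the rescue). KO (anestrus) stood at 3000 to 3890 CPM of luteal markers and the stages at 4360 to 21900 CPM. Theca and stroma markers were 3020 to 3720 CPM in Fshb(-/-) against 1950 to 2190 CPM in WT (3 higher and 1 lower of 9), and 1270 to 2020 CPM in the rescue against 3100 to 4100 CPM (1 higher, 6 lower). The 5 endothelium markers were 254 to 289 CPM in Fshb(-/-) against 395 to 443 CPM in WT (3 lower), and the 4 smooth muscle markers 328 to 541 against 639 to 802 CPM (0 passed). Beside these counts, 7.87% of all genes passed in either direction in Fshb(-/-) against WT and 31.9% in the rescue. In DE, PE and E 25.1%, 33.8% and 18% passed. The part of these cell type markers in the levels of Amh and Amhr2 was not tested.

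AMH is also the classic product of Sertoli cells, the supporting cells of the testis, so their markers were looked at. The 8 genes summed to 166 to 176 CPM in Fshb(-/-) against 67.7 to 83.7 CPM in WT, to 188 to 232 CPM in Fshb(-/-) against 68.1 to 108 CPM in the rescue, and to 266 to 319 CPM in KO (anestrus) against 35.6 to 75.8 CPM over the stages. Of the 6 genes tested, 2 were higher and 1 lower in Fshb(-/-) against WT, 1 higher and 3 lower in the rescue, and 0 higher and 3 lower in DE, 1 and 3 in PE and 0 and 3 in E. Of all genes, 7.87%, 31.9%, 25.1%, 33.8% and 18% passed in either direction in those comparisons, in that order. Cldn11, a tight junction gene, rose by 2.15 ± 0.13 on the log2 scale (65.9 against 14.9 CPM; edgeR adjusted p = 3.1e-04) and Aard by 2.30 ± 0.25 (68.6 against 13.9 CPM; edgeR adjusted p = 0.0019) in Fshb(-/-) against WT. Dhh, which encodes a hedgehog ligand, ran the other way, at 22.5 against 30.9 CPM in Fshb(-/-) and WT (-0.46 ± 0.12, edgeR adjusted p = 0.049, lost without any one of the 6 libraries and with no filter on low counts, up to 0.15) and higher in the rescue (0.49 ± 0.09, edgeR adjusted p = 0.0038). Sox8, a relative of the sex-determining factor Sox9, was at 3.07 ± 0.699 against 1.92 ± 0.337 CPM in Fshb(-/-) and WT (SD, n = 3; edgeR adjusted p = 0.15) and was lower in the rescue (-1.16 ± 0.21, edgeR adjusted p = 0.0036). It stood at 8.18 ± 0.401 CPM in KO (anestrus) and at 1.47 ± 0.209, 1.1 ± 0.197 and 1.42 ± 0.342 CPM in DE, PE and E (SD, n = 4; edgeR adjusted p 7.2e-06, 2.0e-06 and 5.7e-06). Sox9 itself was 4.07 ± 1.02 against 5.37 ± 1.42 CPM (SD, n = 3; edgeR adjusted p = 0.56), and Dmrt1 was at most 1.02 CPM in any library and at 0 in all DE and all E libraries. In PE, Sox9 was higher than in KO (anestrus), 14.2 ± 2.68 against 5.54 ± 2.04 CPM (SD, n = 4; 1.36 ± 0.49, edgeR adjusted p = 0.044), a call lost without KO (anestrus) replicate 1, 2 or 4 or any one PE library and with no filter on low counts (adjusted p reaching 0.11). Markers of Müllerian duct mesenchyme, where Amhr2 acts in the fetus, were 63.8 to 86 CPM in Fshb(-/-) against 40.7 to 54.6 CPM in WT (1 of 4 tested genes higher) and 26.4 to 43.1 CPM in the rescue against 66.3 to 76.4 CPM (2 lower). In experiment 2 this sum rested mainly on Emx2, at a mean of 50.6 CPM in Fshb(-/-) and 23.8 CPM in the rescue, and Hoxd10, at 18 and 10.4 CPM (not passed). Hoxa9 and Hoxa10 were at 2.13 and 1.31 CPM in Fshb(-/-), and Hoxa11 had a count in only 16 of the 33 libraries. In experiment 3 the summed Müllerian markers did not go with Amh: KO (anestrus) held 54.3 to 67.7 CPM, DE 36.6 to 119, PE 50.8 to 77.9 and E 36.9 to 68.4 CPM, with overlap. The median log2 fold change of the 4 tested genes there was 1.17 in DE (1 higher, 0 lower), 0.67 in PE and 0.26 in E (0 passed in either). DE replicates 1, 2 and 4, all PE libraries and E replicate 3 were rich in oviduct transcripts. The part of oviduct tissue in these sums and in the Sox9 values of PE was not tested. These lists' part in the result was not tested either.

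Bmpr1a, the more widely expressed type I receptor gene, hardly moved. It was 160, 148 and 169 CPM in WT, 149, 159 and 152 CPM in Fshb(+/-) and 157, 114 and 146 CPM in Fshb(-/-) of experiment 1, overlapping groups with a log2 fold change of -0.19 ± 0.13 for Fshb(-/-) against WT (edgeR adjusted p = 0.37, interval -0.48 to 0.09). In experiment 2 it was 233, 224, 229 and 240 CPM in Fshb(-/-) and 231, 227, 237 and 243 CPM in the rescue. The difference there was 0.02 ± 0.04 (edgeR adjusted p = 0.77, interval -0.08 to 0.11), the narrowest of the intervals of the 4 genes. In experiment 3 it was 259, 263, 267 and 263 CPM in KO (anestrus), 248, 227, 246 and 247 CPM in DE, 244, 236, 238 and 224 CPM in PE and 229, 241, 224 and 249 CPM in E. Every stage library lay a little below every KO (anestrus) library, as for 14.5% of genes in DE, 20.7% in PE and 17.3% in E. The change was -0.16 ± 0.06 for PE, which passed the test by a narrow margin (edgeR adjusted p = 0.043) and no longer did so without any one of its 8 libraries (adjusted p from 0.074 to 0.21). It was -0.12 ± 0.06 for DE (edgeR adjusted p = 0.13) and -0.16 ± 0.06 for E (edgeR adjusted p = 0.069), and -0.09 (edgeR adjusted p = 0.22) in the E libraries low in oviduct transcripts.

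Bmpr1b, the type I receptor gene known in the ovary for its role in granulosa cells and, in sheep, in litter size, followed Amh and Amhr2 in part. In experiment 1 it was 104, 112 and 175 CPM in WT, 68.7, 75.4 and 87.6 CPM in Fshb(+/-) and 205, 148 and 174 CPM in Fshb(-/-). WT replicate 3 lay within the Fshb(-/-) range, and the log2 fold change of Fshb(-/-) against WT was 0.43 ± 0.21, which did not pass the test (edgeR adjusted p = 0.23; 0.71 and adjusted p = 0.044 without that library). Fshb(+/-) lay below every WT library at -0.76 ± 0.21 (edgeR adjusted p = 0.26, unadjusted 0.0052), as did 9.19% of genes, and DESeq2 called it (-0.75, adjusted p = 0.04). Fshb(-/-) exceeded Fshb(+/-) by 1.19 ± 0.21 (edgeR adjusted p = 0.0066).

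In experiment 2 Bmpr1b was 217, 227, 223 and 219 CPM in Fshb(-/-) and 194, 183, 153 and 188 CPM in the rescue, a small fall without overlap (-0.30 ± 0.07, edgeR adjusted p = 0.011; means 222 ± 4.23 and 179 ± 18.5 CPM, SD, n = 4). Of all genes, 17.4% lay lower in the rescue without overlap. In experiment 3 KO (anestrus) was at 261, 238, 228 and 267 CPM. Bmpr1b was 135, 133, 215 and 133 CPM in DE, 150, 94.3, 166 and 126 CPM in PE and 165, 118, 133 and 106 CPM in E. All stage libraries were below all KO (anestrus) libraries, as for 14.5% of genes in DE, 20.7% in PE and 17.3% in E. DE replicate 3, the DE library poor in oviduct transcripts, was closest to KO (anestrus). The log2 fold changes were -0.69 ± 0.19 in DE (edgeR adjusted p = 0.02), -0.89 ± 0.19 in PE (edgeR adjusted p = 0.0044) and -0.93 ± 0.19 in E (edgeR adjusted p = 0.0048), and -0.90 (edgeR adjusted p = 0.0037) in the E libraries low in oviduct transcripts. The DE call was lost without any one of DE replicates 1, 2 and 4 or KO (anestrus) replicates 1 and 4 (-0.63 to -0.60, adjusted p 0.053 to 0.07).

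**Figure D2:**
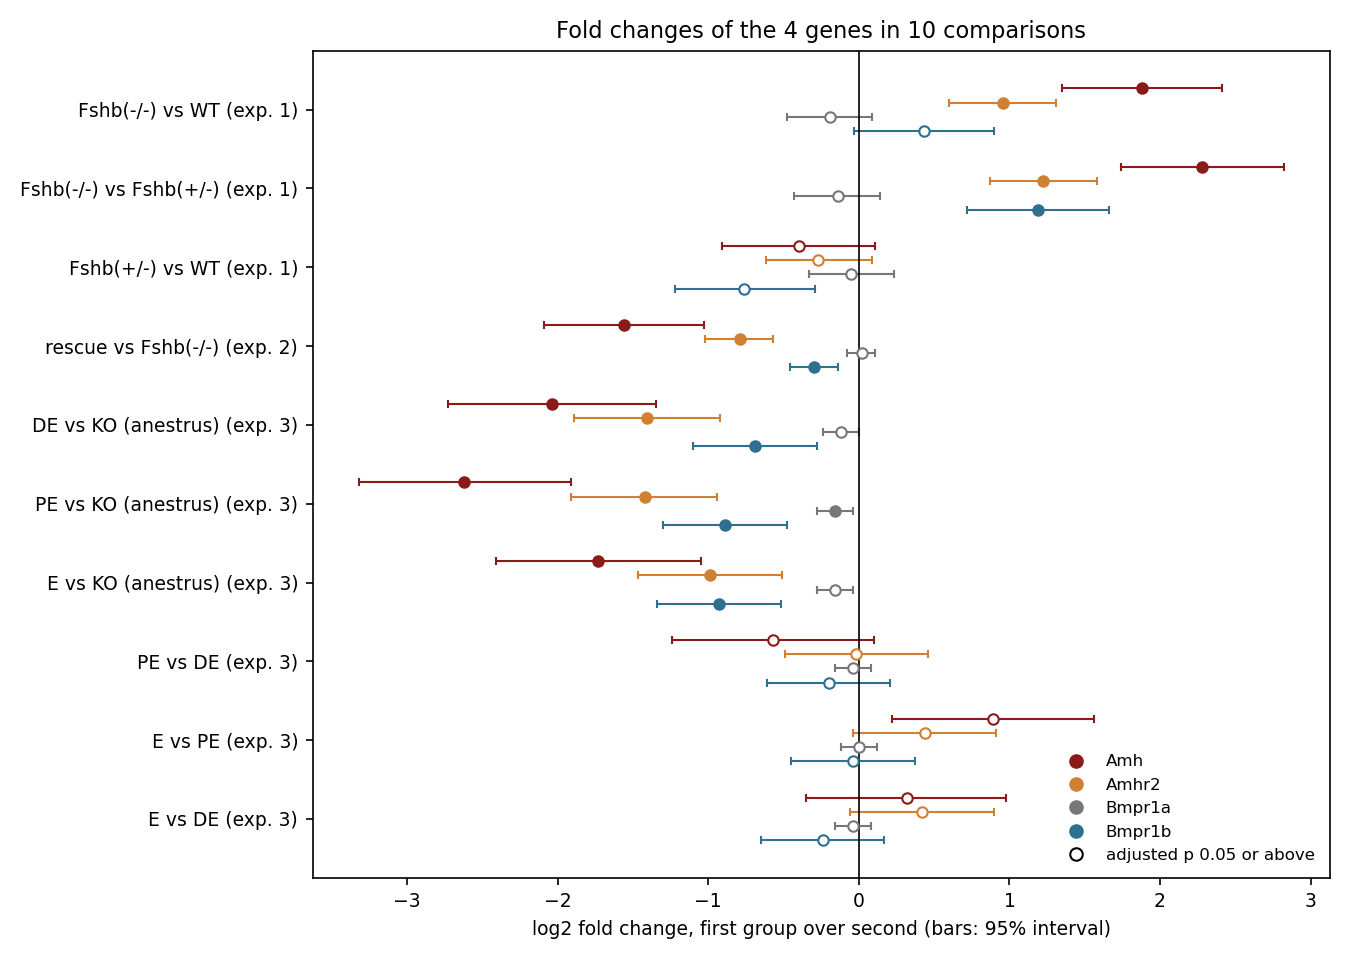
Log2 fold change of each of the 4 genes in 10 comparisons, with 95% intervals from the edgeR fit; filled points have an adjusted p under 0.05. Amh lies furthest from 0 in each of the 6 comparisons that hold an Fshb(-/-) or KO (anestrus) group, and no point is filled in the comparison of Fshb(+/-) with WT or in the 3 between stages.

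In number, 2 of the 4 members passed as higher in Fshb(-/-) against WT, beside 4.53% of all genes, and 3 against Fshb(+/-), beside 9.1%. In the rescue 3 passed as lower, beside 16.2% of all genes. Against KO (anestrus) 3 passed as lower in DE, 4 in PE and 3 in E, beside 11.6%, 16.3% and 8.98%, while 0 passed between Fshb(+/-) and WT. Amh and Amhr2 passed in all 6 of those comparisons, under every alternative setting and without any single library.

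Levels of different genes were set side by side per kilobase of exon. Amh was at 581 CPM per kb in Fshb(-/-) of experiment 1 and 158 in WT, where Amhr2 was at 112 and 57.6. Among the stages and KO (anestrus), the gap between ligand and receptor was smallest in PE, with 38.6 CPM per kb for Amh and 37.4 for Amhr2. Group means of Bmpr1a lay between 21.9 and 41.4 CPM per kb and those of Bmpr1b between 13 and 41.7. The ratio of Amhr2 to Amh within a library, which does not depend on depth or scaling, was 0.174 to 0.215 in Fshb(-/-) and 0.293 to 0.474 in WT of experiment 1. It was 0.308 to 0.409 in Fshb(-/-) and 0.471 to 0.678 in the rescue, and 0.352 to 0.559 in KO (anestrus). In DE it was 0.564 to 0.965, in PE 0.866 to 1.03 and in E 0.508 to 0.979. Within experiment 1, ligand transcript thus outnumbered receptor transcript most in Fshb(-/-). Libraries labelled Fshb(-/-) differed in this ratio between experiments, at 0.174 to 0.215 and 0.308 to 0.409, so groups are not ranked across experiments. E was the only stage whose libraries overlapped KO (anestrus) in this ratio.

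The balance of the type I receptors also differed in these libraries. Bmpr1b to Bmpr1a per kb was 1.27 to 1.39 in Fshb(-/-), 0.693 to 1.1 in WT and 0.491 to 0.612 in Fshb(+/-) of experiment 1, 3 ranges that did not overlap. It was 0.973 to 1.08 in Fshb(-/-) and 0.687 to 0.899 in the rescue of experiment 2. In experiment 3 it was 0.909 to 1.08 in KO (anestrus), 0.573 to 0.929 in DE, 0.426 to 0.742 in PE and 0.451 to 0.77 in E, so only DE reached into the KO (anestrus) range, through replicate 3. Ratios are a description and were not tested.

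**Figure D3:**
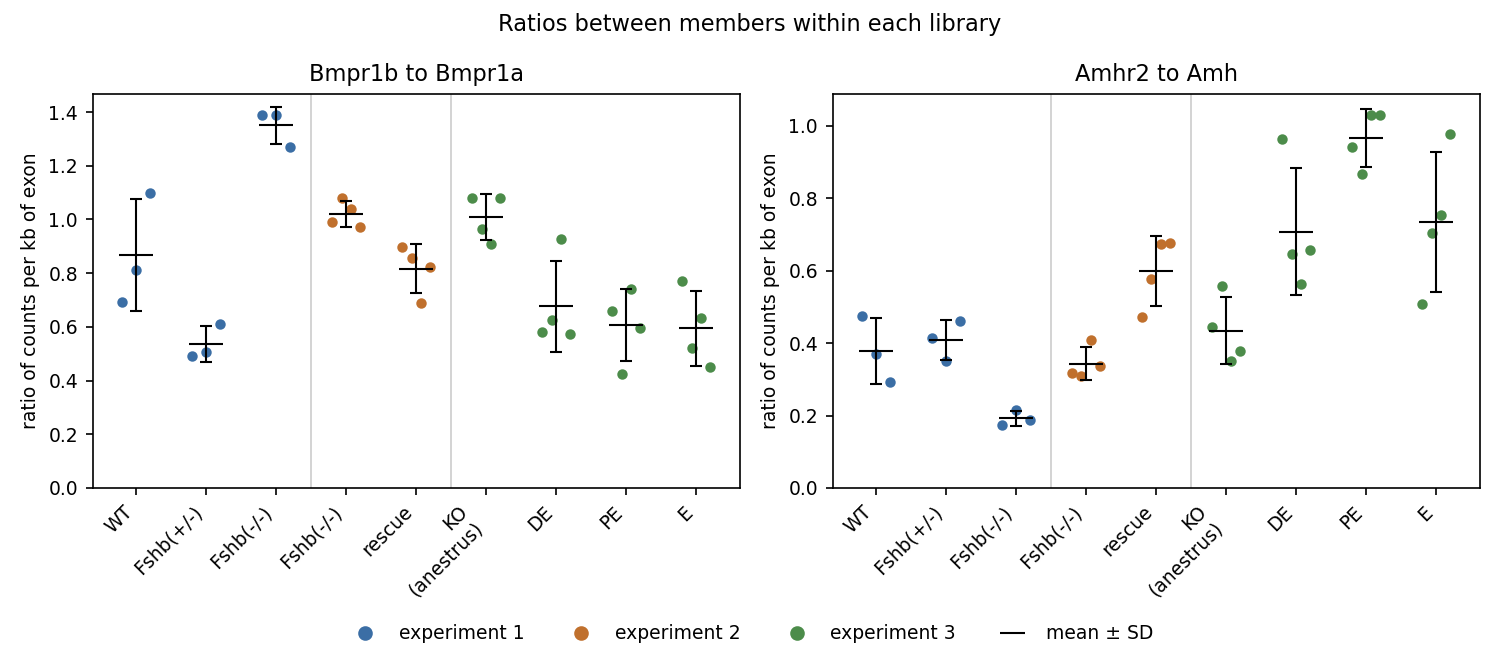
Ratio of counts per kilobase of exon within each of 33 libraries, Bmpr1b to Bmpr1a on the left and Amhr2 to Amh on the right, with the mean and SD of each group in black. Within experiment 1, the Bmpr1b to Bmpr1a ratio is highest (mean 1.35) and the Amhr2 to Amh ratio lowest (0.192) in Fshb(-/-). Among the stages and KO (anestrus), the Amhr2 to Amh ratio is highest in PE (0.968).

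The genes on either side of Amh were looked at because Amh is short and lies close to them. Sf3a2, which encodes a splicing factor subunit, ends 318 bases before Amh on the same strand (chromosome 10, 80798198 to 80804924), and Jsrp1, which encodes a protein of the muscle sarcoplasmic reticulum, lies 847 bases past Amh on the opposite strand (80808496 to 80813498). Exons of the 3 genes do not overlap, and the strand setting of the counting is not given. Sf3a2 was 183 ± 18.6 CPM in Fshb(-/-) against 135 ± 8.68 CPM in WT (SD, n = 3; log2 fold change 0.44 ± 0.12, edgeR adjusted p = 0.059). Against Fshb(+/-), at 113 ± 13.4 CPM, it passed as higher (0.69 ± 0.12, edgeR adjusted p = 0.0064), a call that held under each of 13 alternatives. It passed the test as lower in the rescue (-0.34 ± 0.06, edgeR adjusted p = 0.0022), in DE (-0.46, adjusted p = 0.0022), in PE (-0.56, adjusted p = 5.0e-04) and in E (-0.39, adjusted p = 0.0057). Each of those steps of Sf3a2 was smaller than that of Amh, and the ratio of Amh to Sf3a2 counts was 4.81 to 6.18 in Fshb(-/-) against 1.56 to 2.32 in WT.

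Jsrp1 was far lower, 6.22 ± 0.528 CPM in Fshb(-/-) against 2.36 ± 0.328 CPM in WT (SD, n = 3; log2 fold change 1.39 ± 0.31, edgeR adjusted p = 0.029). That call was lost without any one of the Fshb(-/-) libraries or WT replicates 1 and 2, with adjusted p reaching 0.11. Against Fshb(+/-), at 2.02 ± 0.907 CPM, Jsrp1 was higher by 1.62 ± 0.31 (edgeR adjusted p = 0.0096), and that call held under each of 13 alternatives (adjusted p at most 0.035). In the rescue Jsrp1 passed as lower (-1.12 ± 0.21, edgeR adjusted p = 0.0045), and in DE, PE and E it did not pass (adjusted p 0.13, 0.3 and 0.57). Without a strand setting, reads that run past the end of Amh cannot be told apart from Jsrp1. Of the other annotated neighbours, Gm24128 near Amhr2 was at 0 in all libraries, and Gm17110, an antisense gene over exons of Bmpr1a, reached at most 0.59 CPM.

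**Figure D4:**
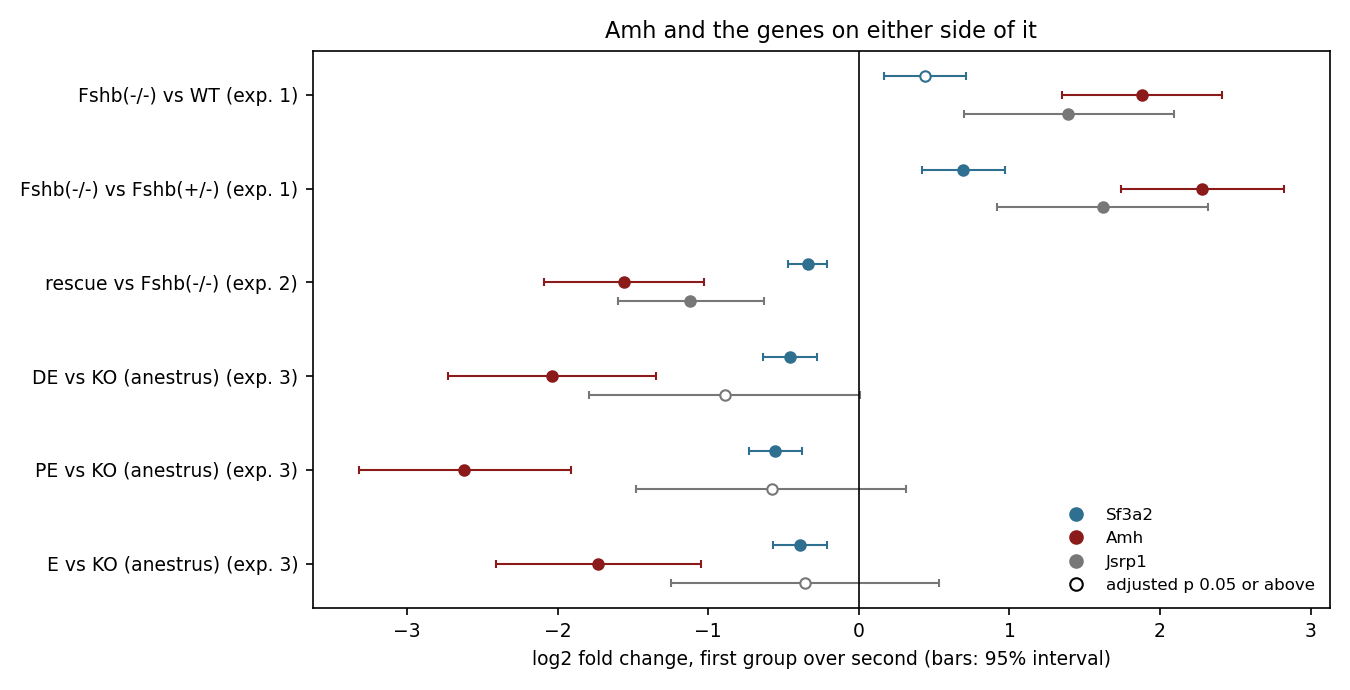
Log2 fold change of Sf3a2, Amh and Jsrp1, neighbours on chromosome 10, in 6 comparisons, with 95% intervals from the edgeR fit; open points have an adjusted p of 0.05 or above. All 3 genes point the same way in each comparison, and Amh lies furthest from 0.

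The rest of the AMH signal chain did not move as a block. Of 21 further genes (receptors, Smads, inhibitors, Id targets and the proprotein convertases that cleave the AMH precursor), 1 was higher and 0 lower in Fshb(-/-) against WT, beside 7.87% of all genes that passed in either direction. That gene was Acvr1, the third type I receptor gene of AMH, at 98.1 ± 13.2 against 66.9 ± 4.92 CPM (SD, n = 3; log2 fold change 0.55 ± 0.12, edgeR adjusted p = 0.03). The call was lost without any one of Fshb(-/-) replicates 2 and 3 or the WT libraries (adjusted p up to 0.11). Against Fshb(+/-), where 17% of all genes passed, Acvr1 was higher by 0.74 ± 0.12 (edgeR adjusted p = 0.0053) and Furin, a convertase, was lower (-0.49 ± 0.12, edgeR adjusted p = 0.025). The Furin call was lost without Fshb(+/-) replicate 2 or 3 or any one Fshb(-/-) library (adjusted p up to 0.078). Acvr1 did not pass in the rescue, where the groups overlapped (-0.21 ± 0.16, edgeR adjusted p = 0.34). Against KO (anestrus) it passed as lower in PE, a call lost in 5 of 16 alternatives, and it did not pass in DE or E.

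In the rescue 8 of the 21 genes were higher and 3 lower, where 31.9% of all genes passed. Pcsk6, a convertase, fell from 109 ± 7.41 to 57.3 ± 7.77 CPM (SD, n = 4; -0.92 ± 0.10, edgeR adjusted p = 2.1e-04), and Furin, another, rose by 0.33 ± 0.07 (edgeR adjusted p = 0.0059). Smad9 rose by 0.56 ± 0.08 (edgeR adjusted p = 0.001), and of the Id targets Id2 rose by 0.34 (adjusted p = 0.011) and Id4 by 0.60 (adjusted p = 0.01). Acvr2b, a type II receptor gene of activins and bone morphogenetic proteins, fell by 0.41 on the log2 scale (adjusted p = 0.0098). These 6 calls held under each of 14 alternatives. The other 5 genes, Smad1, Acvr2a, Pcsk5 and Smurf2 as higher and Id3 as lower, had adjusted p of 0.033 to 0.045 and lost their call in 6 to 10 of the 14.

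Against KO (anestrus), 3 of the 21 genes were higher and 6 lower in DE, 1 and 6 in PE, and 2 and 4 in E, where 25.1%, 33.8% and 18% of all genes passed. Pcsk6 was lower in all 3, from 126 ± 19.6 CPM in KO (anestrus) to 64.2 ± 8.88 in DE (-0.98, edgeR adjusted p = 7.7e-04), 61.5 ± 6.17 in PE (-1.04, adjusted p = 4.4e-04) and 84.1 ± 16.6 CPM in E (-0.59, adjusted p = 0.016; 0.055 without KO (anestrus) replicate 3). Smad6, which encodes an inhibitory Smad, stood at 17.3 ± 3.9 CPM in KO (anestrus) and at 8.55 ± 3.05, 8.51 ± 2.57 and 8.83 ± 2.57 CPM in DE, PE and E (adjusted p 0.02, 0.014 and 0.028). The PE call of Smad6 held under all 16 alternatives, while the DE call was lost without DE replicate 1 or 4 or KO (anestrus) replicate 3 (adjusted p reaching 0.066) and the E call without E replicate 3 or 4 or KO (anestrus) replicate 1, 3 or 4, or with DE replicate 3 and E replicate 3 both left out (adjusted p reaching 0.091). Smad7, another inhibitory Smad gene, was lower in PE at 17.8 ± 2.79 against 30.8 ± 1.44 CPM (-0.79, edgeR adjusted p = 0.0067). The genes that passed as higher were Smad1, Acvr2a and an Id gene in DE, Id4 in PE, and Smad1 and Id2 in E. Smad1 lost its call in 10 of 16 alternatives in DE and 4 of 17 in E, and Acvr2a in 8 of 16. Id4 lost its PE call in 3 of 16 and Id2 its E call in 6 of 17. Of the 4 Id targets, 1 was higher and 1 lower in DE, 1 and 0 in PE, and 1 and 1 in E. Between the stages and between Fshb(+/-) and WT, 0 of the 21 genes passed by edgeR, as did 0 in the difference of differences.

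Of 11 transcription factors known to act at the Amh gene, 2 were higher and 1 lower in Fshb(-/-) against WT, beside 7.87% of all genes that passed in either direction. Wt1, a regulator of gonadal supporting cells, rose from 110 ± 7.02 to 188 ± 7.64 CPM (SD, n = 3; 0.77 ± 0.12, edgeR adjusted p = 0.0074) and the call held in all 14 alternatives. Esr2, the estrogen receptor of granulosa cells, rose by 0.69 ± 0.15 (edgeR adjusted p = 0.028) and Gata6 fell by 0.67 on the log2 scale (edgeR adjusted p = 0.042). The Esr2 call was lost without any one of Fshb(-/-) replicates 1 and 3 or WT replicates 2 and 3, and the Gata6 call without any one of the Fshb(-/-) libraries or WT replicates 1 and 2, with adjusted p reaching 0.1 and 0.14 respectively. In the rescue 2 were higher and 5 lower, beside 31.9% of all genes: Wt1 fell from 174 ± 8.34 to 90.1 ± 17.3 CPM (SD, n = 4; -0.95 ± 0.12, edgeR adjusted p = 7.9e-04), Esr2 fell by 0.40 (adjusted p = 0.0058) and Gata6 rose by 0.65 (adjusted p = 0.0016). Against KO (anestrus) the counts were 1 higher and 4 lower in DE, 2 and 4 in PE and 1 and 3 in E, beside 25.1%, 33.8% and 18% of all genes. Wt1 was lower in all 3 (-0.66 in DE, -0.56 in PE, -0.68 in E; edgeR adjusted p 0.005, 0.0084 and 0.004). It was not alone: Gata6, Zfpm2 and Sox8 also passed in all 3, and in E Gata6 was the higher one, opposite to Amh. Gata6 also ran opposite to Amh in Fshb(-/-) against WT and in the rescue. The Gata6 call held in all 17 alternatives in E and was lost in 6 of 16 in DE and 7 of 16 in PE. That of Zfpm2 was lost in 7 of 17 in E.

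Nr5a1, whose half-site is printed above in the Amhr2 promoter, passed in none of the 10 comparisons: it was 262 ± 15.9 against 373 ± 93.5 CPM in Fshb(-/-) and WT (SD, n = 3; -0.51 ± 0.17, edgeR adjusted p = 0.11) and 259 ± 31.5 against 235 ± 8.57 CPM in the rescue and Fshb(-/-) (SD, n = 4; 0.14 ± 0.08, edgeR adjusted p = 0.2). Foxl2, which maintains granulosa cell identity, passed in none either, at 282 ± 21.1 against 268 ± 37.1 CPM in Fshb(-/-) and WT (SD, n = 3; edgeR adjusted p = 0.84). Wt1, Esr2, Foxl2 and Nr0b1 are also on the granulosa list and Sox8 and Sox9 on the Sertoli list, so these counts are not independent.

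**Figure D5:**
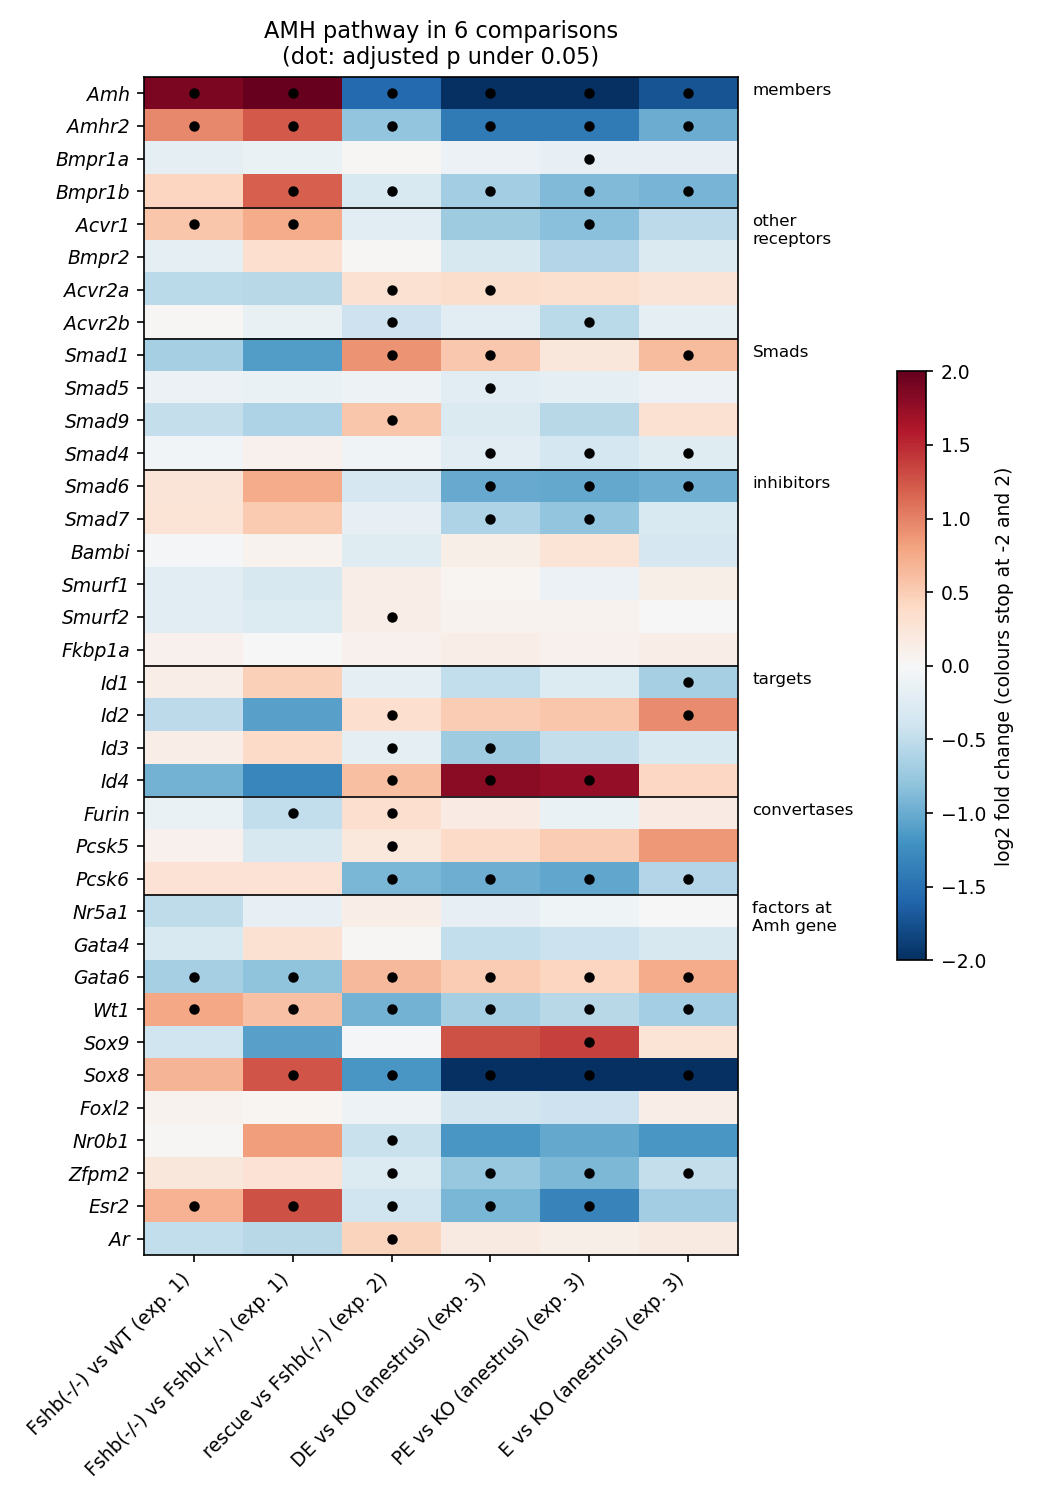
Log2 fold change (colour, ending at -2 and 2) of the 4 members, 21 genes of the AMH signal chain and 11 transcription factors known at the Amh gene (rows) in 6 comparisons (columns); a dot marks an adjusted p under 0.05 by edgeR. The rows of Amh and Amhr2 carry a dot in all 6 columns, as do those of Wt1 and Gata6. Gata6 runs opposite to Amh in Fshb(-/-) against WT, in the rescue and in E. The rows of Nr5a1, Gata4, Foxl2, Bmpr2, Bambi, Smurf1 and Fkbp1a carry none.

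Likeness between genes was measured as Pearson's correlation of log2(CPM + 1), each value less the mean of its own experiment, over 33 libraries. The libraries of a group share their condition and the genes of a library its cell makeup, so these values describe and carry no p. Amh and Amhr2 were at 0.95, Amh and Bmpr1b at 0.79, Amhr2 and Bmpr1b at 0.72, Bmpr1a and Bmpr1b at 0.21, and Bmpr1a stood at 0 with Amh and -0.03 with Amhr2. Among 11945 genes, those most like Amh were Nxf3, Rgs2, Psd4 and Wfdc10 (0.96 each), then Inpp5b and Ephb6 (0.95 each). The lowest were Sema3f (-0.95), Nudt4 and Atp6v1a (-0.93 each) and Cybrd1 (-0.92). Wfdc10 (0.96) and Ephb6 (0.94) were also the 2 genes most like Amhr2, followed by Lrrc4 (0.94). Bmpr1a was most like Lrp6 and Nipbl (0.90 each) and Ranbp2 (0.89), and Bmpr1b most like Neu3 and Epn2 (0.93 each) and Il17ra (0.92). The order depended on the measure: by Spearman's rank, 2 of the 6 genes highest for Amh remained among its top 6, ties included (Nxf3 and Wfdc10), and in experiment 3 alone 1 did (Wfdc10). Of the 3 genes highest for each receptor gene, 0 remained among the top 3 by Spearman's rank for Amhr2, 2 for Bmpr1a and 1 for Bmpr1b. In experiment 3 alone, 2 remained for Amhr2, 0 for Bmpr1a and 0 for Bmpr1b.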

How the data were processed

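RNA was measured in 33 mouse ovary libraries. The authors deposited estimated counts per gene, made from polyadenylated RNA in experiment 3 per the labels' protocols; the submitters' processing notes name Salmon, DESeq2 and GRCm38, and the sources used here give no version, setting or annotation for them. From 10.5% to 20.1% of a library's values were not whole, and they were rounded. Reads shared by overlapping genes are divided by the quantifier. Identifiers were matched to GENCODE M21 (53307 with their version, 54094 without it, 253 unmatched with 0.0055% of counts). Counts of libraries of 1 group differed by more than sampling noise (chi-square over its degrees of freedom, 5.6 to 73.6).

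With edgeR 4.0.16 (R 4.3.3), a separate model was fitted to each experiment (TMM, filterByExpr, robust quasi-likelihood test, Benjamini-Hochberg over all genes tested, threshold 0.05), and experiments 1 and 2 together for the difference of differences. All groups of an experiment share the spread estimate. SE is the log2 fold change over the square root of F, and 95% intervals use the test's degrees of freedom. Levels are TMM-scaled CPM, per kilobase of exon union where genes are compared. The fitting procedure was also run on simulated counts, drawn gene by gene with the same mean in all libraries except for genes changed by known folds. The simulation thus lacked the oviduct differences between libraries, and no result here rests on it. The 4 members were named in every comparison, with up to 6 tested genes of smallest p from each of 15 lists, neighbours within 2 kb, and the genes most and least like each member with a mean of at least 5 CPM. The members and lists were chosen with earlier results of these data known. Alternatives were DESeq2 1.42.0, limma 3.58.1 voom with quality weights, a mean of at least 1 CPM or no filter, median-of-ratios factors, only the groups compared, the replicate block, libraries left out and, for levels, CPM of total counts and transcript length. Counting precision is set by the depth given in the text, and it covers counting error only.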

Additional observations from a re-analysis of the deposited data

Results flagged for a closer look

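Of 54 sets of 4 values (a gene or ratio in a group) tested for a value far from the others with Dixon's ratio, 3 were past its 95% critical value, where chance gives about 1 in 20. All 3 were in DE. Bmpr1a stood at 227 CPM in DE replicate 2 against 246 to 248 CPM in the other DE libraries. Bmpr1b stood at 215 CPM in DE replicate 3 against 133 to 135 CPM in the others. The ratio of Bmpr1b to Bmpr1a per kb followed from the latter, 0.929 in DE replicate 3 against 0.573 to 0.624. DE replicate 3 held 25.2 CPM of summed oviduct epithelium markers against 3450 to 7490 CPM in the other DE libraries; the part of these markers in the value was not tested.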

How the results depend on the processing

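Of the 4 genes in 11 contrasts, no value reversed a called direction under any alternative; 664 values kept their side of the threshold, 19 lost a call and 5 gained one. Of the 664, 14 changed sign at 2 decimals, all in contrasts not called: Amhr2 between PE and DE (leave-one-out -0.21 to 0.21), Bmpr1b between PE and DE (up to 0.04, voom) and between E and PE (-0.18 to 0.07), and Bmpr1b in the difference of differences (-0.01 to 0.38); Bmpr1a between E and PE lay around 0 (-0.03 to 0.02). Amh and Amhr2 kept all their calls. The gains were Bmpr1b in Fshb(-/-) against WT (0.43) with voom quality weights (0.64) and, in a leave-one-out range of 0.30 to 0.71, without WT replicate 3; Bmpr1b in Fshb(+/-) against WT with DESeq2 (-0.75); and Bmpr1a in E against KO (anestrus) (-0.16) with DESeq2 (-0.14) and voom (-0.15). The losses were Bmpr1b in DE (-0.69) in 5 of 8 fits with 1 library left out (-0.63 to -0.60, of -0.84 to -0.60 over the 8), and Bmpr1a in PE (-0.16) with a mean of at least 1 CPM (-0.12), median-of-ratios factors (-0.15), no filter (-0.16), only the groups compared (-0.15), DE replicate 3 and E replicate 3 both left out (-0.11), the replicate block (-0.16, adjusted p = 0.084 by edgeR) and each library left out (-0.16 to -0.12); the cause was not tested. DE replicate 3, which was to be left out as rich in oviduct transcripts, turned out poor in them. Whether replicate numbers pair the libraries was not settled. Same-numbered libraries correlated at -0.17 to 0.14 in experiment 1 (1 of 9 pairs over 0.1), -0.14 to 0.08 in experiment 2 (0 of 4) and -0.78 to 0.29 in experiment 3 (6 of 24). These values also carry other differences between libraries: the -0.78 was between E replicate 3, rich in oviduct transcripts, and DE replicate 3, poor in them. The replicate block changed no other call of a member. Of 99 calls of named list genes and neighbours it lost 17, with adjusted p of 0.055 to 0.084 by edgeR, among them Acvr1, Dhh, Gata6 and Jsrp1 in Fshb(-/-) against WT, Sox9 in PE and Smad6 in E.

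The number of genes called moved by over 1.5 times in Fshb(-/-) against WT (1355; DESeq2 2419, voom 3589, leave-one-out 456 to 1031), in Fshb(+/-) against WT (15; DESeq2 341, voom 29, block 7, leave-one-out 9 to 14), in Fshb(-/-) against Fshb(+/-) (2928; leave-one-out 1362 to 2581), in DE (4249; leave-one-out 2422 to 5787) and in E (3042; voom 5288, oviduct-poor libraries 4884, leave-one-out 1920 to 2779) against KO (anestrus), and in the difference of differences (28; DESeq2 134, voom 63, block 15). Between E and PE it went from 0 to 337 (DESeq2), 2489 (voom), 2656 (DE replicate 3 and E replicate 3 both left out) and up to 1847 with 1 library left out, and between E and DE from 0 to 10 (DESeq2), 2750 (both left out) and up to 1039. CPM of total counts moved group means by -1.6% to 1.5%, and the longest transcript's length by 0 to 11.6%.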
